A study of Mus musculus with 3 samples.

Results

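The Xlr3, Xlr4 and Xlr5 genes are X-linked lymphocyte-regulated genes, near copies of each other that lie together in a cluster on the mouse X chromosome. Their RNA was measured in mouse embryoid bodies, the aggregates that embryonic stem cells form when they differentiate in suspension. The members were taken by name: all non-control probes whose gene name on the array is Xlr3, Xlr4 or Xlr5 followed by 1 letter. There were 10 such probes of 39429, and they name 7 genes of the 9 that RefSeq lists (Xlr3a to Xlr3c, Xlr4a to Xlr4c and Xlr5a to Xlr5c). Xlr3c and Xlr4c have no probe under their own name and were read only through probes that their transcripts share with other copies. The family was picked because it differed between the genotypes on these same arrays, so its ratios are given as a description, and calls of its probes in the fit over all probes are no evidence about it.

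The samples were 3 Dido3deltaCT mutant and 3 wildtype control embryoid body RNAs, all collected at day 10 of culture without LIF, the factor that holds embryonic stem cells undifferentiated. The mutant makes a Dido3 protein that lacks its C-terminal part. It is encoded by Dido1, the death inducer-obliterator gene. The labels call the samples biological replicates, without saying whether a replicate is a cell line of its own. If each genotype is 1 line grown several times, genotype cannot be told apart from whatever else distinguishes the lines. Each of the 3 two-colour arrays held 1 mutant and 1 wild type RNA, with mutant RNA in Cy3 on replicates 1 and 3 and in Cy5 on replicate 2.

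Replicate 2, the array with the dyes the other way round, stood apart from the others. Over the 19142 probes that passed the filter, the log2 ratios of mutant over wild type on replicates 1 and 3 had a Pearson correlation of 0.874 and the same sign for 83.7% of probes. Replicate 2 reached 0.133 and 50.8% with replicate 1, and 0.162 and 52.5% with replicate 3. In the mutant channels 46.5% to 62.5% of the spots stood well above background, and in the wild type channels 48.5% to 74.4%. A probe passed the filter if every sample of 1 genotype, or of both, was well above background. Of the Y-linked genes, Ddx3y was not well above background in any mutant sample and was at least 21.2-fold lower there (limma, adjusted p = 0.04103), and Eif2s3y was lower by a log2 ratio of -6.17 (limma, adjusted p = 0.04044, above background in 1 of 3 mutant samples). Neither probe of Xist, the RNA that silences an X chromosome in female cells, was well above background in any mutant or wild type sample. Of the 4 probes of Dido1, 3 gave log2 ratios of 1.74, 1.12 and -1.92. For the remaining probe no wild type sample was well above background, and mutant samples had at least 2.17-fold more signal. Since the deleted stretch is not specified in the labels, these probes do not check the genotype.

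Xlr proteins belong to the family of SYCP3, a protein of the axis along which homologous chromosomes are held in meiosis, and related X-linked and Y-linked copies (Slx, Slxl1 and Sly) act in mouse sperm development. The founding Xlr gene was named for its expression in lymphocytes. In mouse brain, Xlr3b, Xlr4b and Xlr4c are known as imprinted genes that are expressed more from the X chromosome inherited from the mother. Many germline genes are kept silent in most somatic tissue, in many cases by DNA methylation of their promoters that is laid down as the embryo differentiates.

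The array reads the family with probes of 60 bases, and the probes decide which copies can be told apart. By the accessions that the array lists, 3 probes belong to a single copy (Xlr3a, Xlr5a and 1 of the Xlr5c probes), and the other 7 are annotated to several copies. The array lists at most 4 accessions for a probe, and every family probe lists 4. The sharing may therefore be wider than listed, also for the probes listed under a single copy. The next lines show the single-copy probes of Xlr3a and Xlr5c, the Xlr5c probe with the smallest spread between arrays and the part of the Xlr4a probe with the smallest ratio that follows its ATG. Each number is the first base of the probe in the named transcript, and capitals mark that ATG and the TAG that ends the second Xlr5c probe.
Xlr3a at base 399, chrX:70337114-70337173, minus strand, mm9: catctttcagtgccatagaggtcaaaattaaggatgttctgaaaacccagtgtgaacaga
Xlr4a at base 215, last 36 bases, chrX:70326874-70326909, minus strand, mm9: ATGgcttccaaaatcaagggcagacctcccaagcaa
Xlr5c at base 349, chrX:70532054-70532113, minus strand, mm9: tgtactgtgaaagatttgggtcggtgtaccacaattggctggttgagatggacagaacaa
Xlr5c at base 480, chrX:70530536-70530595, minus strand, mm9: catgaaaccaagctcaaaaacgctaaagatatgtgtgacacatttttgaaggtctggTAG

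Between probes there was little shared sequence. Of the 45 pairs of family probes, 1 pair shared a long stretch, and no other pair shared more than 8 bases in a row. The pair is the Xlr3b probe at base 1434 and the Xlr4a probe at base 999, which hold the same 37 bases, and the first 30 of these are shown.
Shared by the Xlr3b and Xlr4a probes: agaatgttttgtttgtggaatttatcgcac
The Xlr3 and Xlr4 signals at these probes may therefore not be independent of each other, which was not tested. Over the rest of the array, the probe of the related pseudogene Xlr4d-ps was the only one that shared 16 or more bases in a row with a family probe on either strand, 26 with the Xlr4a probe and 25 with the Xlr3b probe.

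The Xlr3 and Xlr4 promoters group by subfamily, while that of Xlr5c stands apart from those of Xlr5a and Xlr5b. RefSeq promoters of assembly GRCm38.p6 (250 bases before and 50 after the start of 1 transcript per gene) were matched for all 9 genes. Over aligned bases the 3 Xlr4 promoters were 98.1% to 98.9% identical, the 3 Xlr3 promoters 93.7% to 98.1%, and Xlr5a and Xlr5b 100%, while Xlr5c matched these at 69.5% and 72.6%. Pairs from different subfamilies reached 69.4% to 78.2%, a range that holds both Xlr5c values. These pairs aligned over 55 to 255 bases, and Xlr5c aligned with Xlr5a and Xlr5b over 203 and 226. Each promoter hangs on 1 annotated start, and these are not placed alike, as matched stretches below lie at different distances from them. Motif and CpG counts are therefore taken over windows that are shifted between copies. Motifs were chosen after the sequences had been read and were searched on both strands. The longest run common to all 6 Xlr3 and Xlr4 promoters was CAGCCAATCAGAGA, of 14 bases, which holds the CCAAT box. It lay in none of the 3 Xlr5 promoters and in 16 of 32851 mouse promoters (0.0487%), 10 of them outside the family. Of the 9 genes behind these 10, 6 had probes past the filter (Arl6ip6, Cnpy3, Golt1b, Ndufa6, Pebp1 and Recql), and their 10 probes had log2 ratios of mutant over wild type from -0.33 to 0.46, none of them called. CCAAT alone lay in 8 of 9 (all but Xlr5c) and in 37.4% of all promoters. CCGGAAG lay in the 3 Xlr4 promoters and in those of Xlr5a and Xlr5b, and in 8.86% of all. The bases before the Xlr3b and Xlr4a starts are shown, Xlr3b with the run and no CCGGAAG and Xlr4a with the run and CCGGAAG, with the matches in capitals.
Xlr3b, chrX:73191929-73192178, plus strand, GRCm38.p6: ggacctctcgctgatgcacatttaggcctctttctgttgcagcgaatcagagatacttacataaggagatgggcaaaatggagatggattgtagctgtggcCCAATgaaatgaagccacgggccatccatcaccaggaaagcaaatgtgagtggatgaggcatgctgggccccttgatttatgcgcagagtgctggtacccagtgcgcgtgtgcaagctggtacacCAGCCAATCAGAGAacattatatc
Xlr4a, chrX:73082508-73082757, minus strand, GRCm38.p6: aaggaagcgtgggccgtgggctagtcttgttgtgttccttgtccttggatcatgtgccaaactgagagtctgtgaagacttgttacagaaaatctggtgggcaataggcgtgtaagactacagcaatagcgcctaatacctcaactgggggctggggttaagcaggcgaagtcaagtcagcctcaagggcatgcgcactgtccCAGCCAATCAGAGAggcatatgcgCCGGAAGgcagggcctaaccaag

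The 30 bases around the first match of that run were the same in Xlr4a, Xlr4b and Xlr4c, and another 30 bases were the same in Xlr3a and Xlr3c. Those around CCGGAAG were the same in Xlr5a and Xlr5b. Counted from the annotated start, the run's first match began at -150 in Xlr3a, -231 in Xlr3c and -24 in Xlr3b. In Xlr4a, Xlr4b and Xlr4c it began at -47, -40 and -17. The Xlr3a and Xlr3c window also lies in the Xlr3b bases above, with a single base of the run changed. The first match in Xlr3b is therefore not the site matched in Xlr3a and Xlr3c. Matches in Xlr3 and Xlr4 promoters need not be the same site either. The 3 windows are given for comparison, with the motif in capitals.
Xlr4a, Xlr4b and Xlr4c: cactgtccCAGCCAATCAGAGAggcatatg
Xlr3a and Xlr3c: ttctgttgCAGCCAATCAGAGAtacttaca
Xlr5a and Xlr5b: gtaaagcccttCCGGAAGcatcatctcccc
Neither CACGTG, the E-box that MGA and MAX bind, nor TCCCGC, a core of E2F sites, lay in any of the 9 promoters. They lay in 7.15% and 20% of all promoters. CpG pairs, the sites of DNA methylation, numbered 16 in the Xlr5a and Xlr5b promoters, 7 or 8 in those of Xlr3b, Xlr3c, Xlr4a, Xlr4b and Xlr4c, 5 in that of Xlr3a and 1 in that of Xlr5c, against a median of 7 over all promoters. A match is a run of letters in this window and says nothing of binding.

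RNA of all 3 subfamilies was higher in mutant embryoid bodies. Over the 10 probes the median log2 ratio of mutant over wild type was 4.46, and on the 3 arrays the family median was 4.51, 3.57 and 4.94. Over all probes past the filter the median was 0.02. Each probe was above 0 on all 3 arrays, as were 20.6% of all probes, and 9 of the 10 were above 2 on all 3 arrays, as were 0.418% of all probes. In the limma fit over all probes, 9 of the 10 passed an adjusted p of 0.05, all higher in the mutant, a direction called for 0.392% of the 19142 probes, while the opposite direction was called for 0.225% of all and for 0 of the 10. The family was chosen on this contrast, so that count is no support for it. Without replicate 2 the family median was 4.70 and 10 of 10 passed, as did 46.1% of all probes. Without replicate 1 it was 4.33 and 2 of 10 passed, as did 0.0261% of all probes. In bulk RNA, more cells that express a gene and more RNA per cell cannot be told apart.

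Signal levels are given next as log2 intensities of each channel after normalisation, in the order of replicates 1, 2 and 3. All 10 probes were well above background in every mutant sample and 8 in every wild type sample, and none was saturated. At each of the 10 the lowest mutant sample was above the highest wild type sample, as at 10.3% of all probes. Levels of different probes are not set against each other, because probes differ in how they bind.

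**Figure D1:**
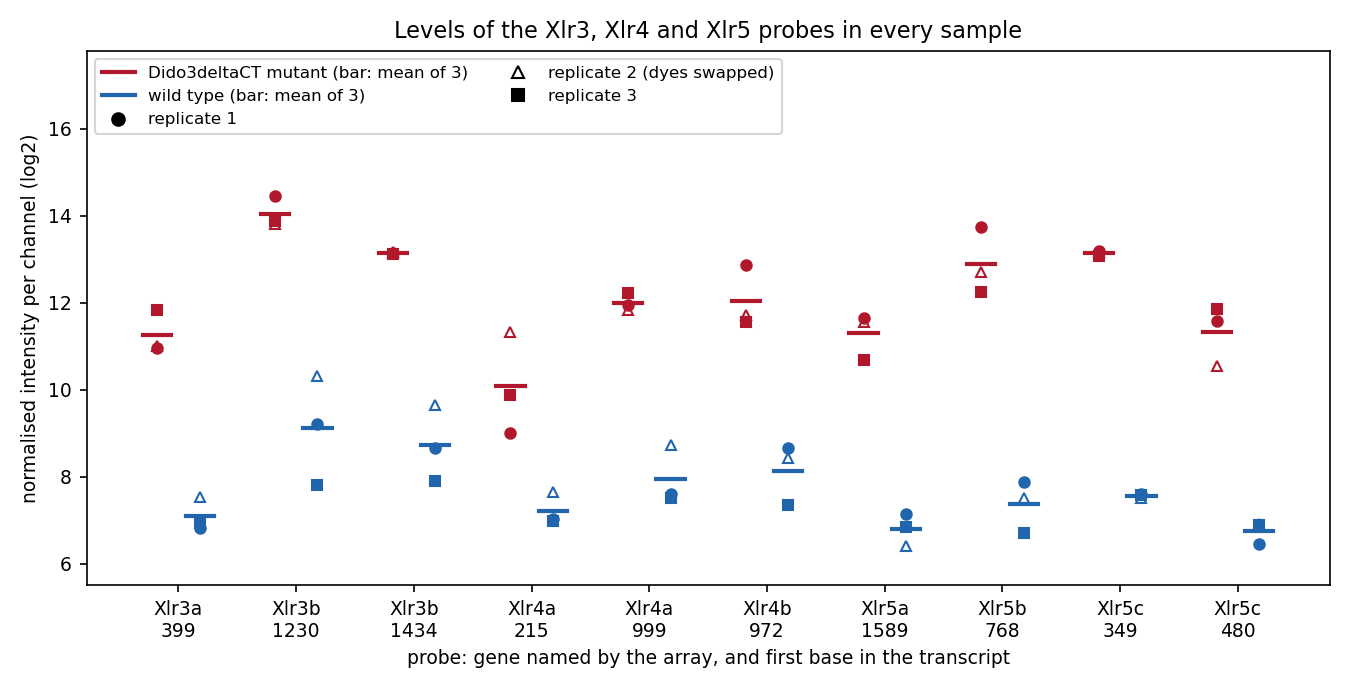
Normalised log2 intensity of the 10 Xlr3, Xlr4 and Xlr5 probes (columns, named by gene and first base in the transcript) in the 3 mutant samples (red, left of each pair) and the 3 wild type samples (blue, right), with bars for the mean of 3. All 3 mutant points lie above all 3 wild type points for each probe, which holds for 10.3% of all probes past the filter, and the smallest gap is 1.36, at the Xlr4a probe at base 215.

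Of the Xlr3 subfamily, the probe annotated to Xlr3a alone had levels of 10.95, 11.01 and 11.84 in mutant samples, against 6.83, 7.54 and 6.93 in wild type samples. The genotypes did not overlap, and the log2 ratio was 4.17 ± 0.72 (SD, n = 3), 17.9-fold. The Xlr3b probe at base 1230, at chrX:70447883-70447942 on the plus strand of mm9, is annotated to all 3 Xlr3 copies. It had 14.46, 13.81 and 13.88 in mutant samples, against 9.21, 10.32 and 7.82 in wild type samples. Its mutant samples lay close together, its wild type samples were spread, and its ratio of 4.93 ± 1.31 (SD, n = 3) varied most of the 10 probes. The second Xlr3b probe, at base 1434, had 13.14, 13.18 and 13.12 in mutant samples, against 8.65, 9.66 and 7.90 in wild type samples, a log2 ratio of 4.41 ± 0.85 (SD, n = 3). At all 3 probes replicate 2 had the smallest ratio (3.47 to 3.52) and the highest wild type level. The Xlr3b protein is known in mouse neurons for binding RNAs that are transported in dendrites.

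Of the Xlr4 subfamily, the Xlr4a probe at base 999, at chrX:70319816-70319875 on the minus strand, is annotated to Xlr4a and Xlr4c. It had 11.96, 11.84 and 12.22 in mutant samples, against 7.60, 8.73 and 7.51 in wild type samples, a log2 ratio of 4.06 ± 0.85 (SD, n = 3) or 16.7-fold. The Xlr4b probe, at chrX:70467477-70467536 on the plus strand, is annotated to Xlr4a and Xlr4b. It had 12.87, 11.71 and 11.56 in mutant samples, against 8.66, 8.42 and 7.34 in wild type samples, a log2 ratio of 3.91 ± 0.54 (SD, n = 3) or 15-fold. Neither probe overlapped between genotypes. The Xlr4a probe at base 215, annotated to all 3 Xlr4 copies, had 9.01, 11.33 and 9.89 in mutant samples, against 7.02, 7.65 and 6.97 in wild type samples. It had the smallest ratio of the family, 2.86 ± 0.85 (SD, n = 3), and was the probe that did not pass the threshold. Here the order of the arrays was turned, with the largest ratio on replicate 2 (3.68) and 1.99 and 2.92 on replicates 1 and 3. Its ratio was below that of the other Xlr4a probe by 2.38 and 1.79 on replicates 1 and 3 and above it on replicate 2, where the base 999 probe minus the base 215 probe came to -0.57.

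Of the Xlr5 subfamily, the probe annotated to Xlr5a alone lies at chrX:70352978-70353037 on the minus strand. It had 11.66, 11.57 and 10.69 in mutant samples, against 7.13, 6.41 and 6.85 in wild type samples, and 2 of the 3 wild type samples were well above background. Its log2 ratio was 4.51 ± 0.66 (SD, n = 3), largest on replicate 2 (5.17). The Xlr5b probe, at chrX:70403373-70403432 on the plus strand and annotated to Xlr5a and Xlr5b, had 13.75, 12.71 and 12.24 in mutant samples, against 7.87, 7.52 and 6.71 in wild type samples. Both genotypes fell in the same order over the arrays, and the ratio of 5.53 ± 0.34 (SD, n = 3), 46.2-fold, was steadier than either level.

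The Xlr5c probe at base 349, annotated to all 3 Xlr5 copies, had 13.19, 13.17 and 13.08 in mutant samples, against 7.59, 7.52 and 7.58 in wild type samples. Its ratio of 5.58 ± 0.07 (SD, n = 3), 47.9-fold, was the largest of the family and the most alike between arrays, replicate 2 included. The probe annotated to Xlr5c alone, at base 480, had 11.58, 10.55 and 11.86 in mutant samples, against 6.44, 6.92 and 6.89 in wild type samples, with 2 of the 3 wild type samples well above background. Its log2 ratio was 4.58 ± 0.83 (SD, n = 3) or 23.9-fold, with the smallest value, 3.63, on replicate 2. As far as the listed accessions go, Xlr5c was thus higher in the mutant by the probe annotated to it alone as well as by the probe it shares.

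**Figure D2:**
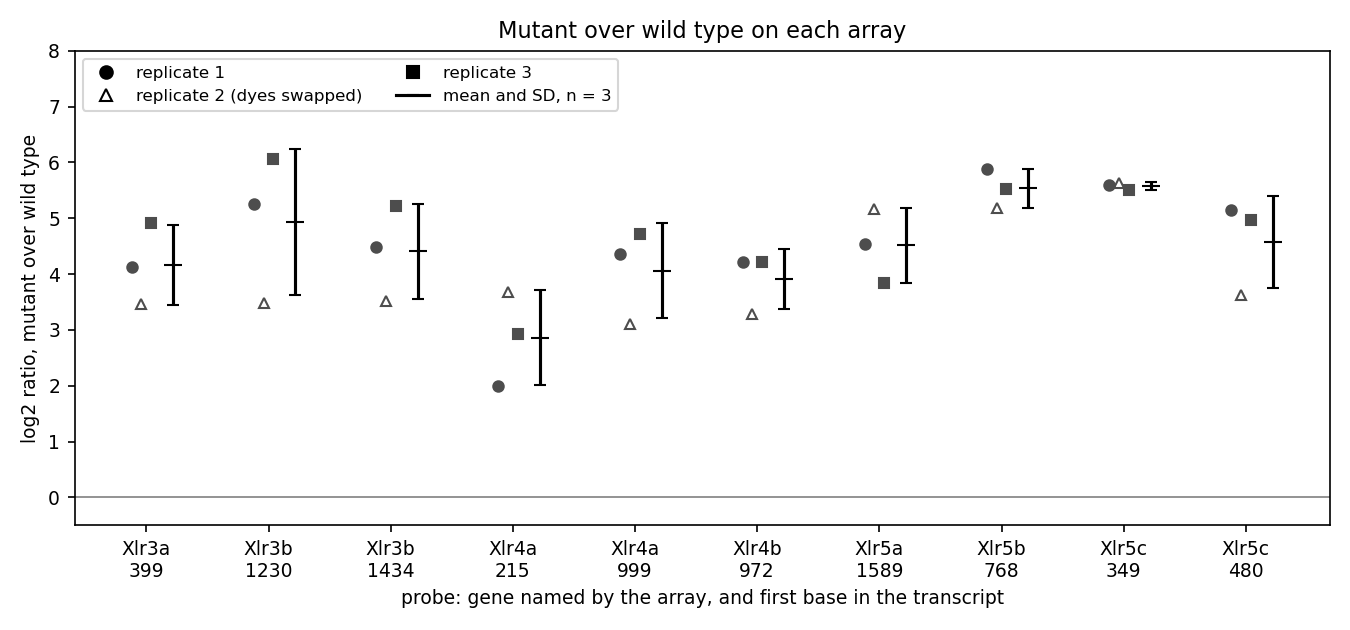
Log2 ratio of mutant over wild type for the 10 probes on each of the 3 arrays (grey symbols, open for replicate 2 with the dyes swapped), with the mean and SD of 3 (black). Values run from 1.99 to 6.06, and replicate 2 is the lowest of the 3 arrays at all but the Xlr4a probe at base 215, the Xlr5a probe and the Xlr5c probe at base 349.

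All 3 probes annotated to a single copy were higher in the mutant, with a median log2 ratio of 4.51, and the 7 probes annotated to several copies had a median of 4.41. The difference between genotypes was thus seen at Xlr3a, Xlr5a and Xlr5c by probes annotated to them alone, as far as the listed accessions go. For the Xlr4 copies, Xlr3b, Xlr3c and Xlr5b no probe is annotated to 1 copy alone. Between subfamilies, the mean over the Xlr5 probes exceeded that over the Xlr4 probes by 1.77, 1.55 and 1.01 on the 3 arrays, 1.44 ± 0.39 (SD, n = 3). The Xlr5 mean minus the Xlr3 mean was 0.67, 1.42 and -0.43, and its sign was not the same on all arrays. The Xlr3 mean minus the Xlr4 mean was 1.10, 0.13 and 1.44. The Xlr4 mean includes the low Xlr4a probe at base 215 (2.86), while the Xlr4 probes at bases 999 and 972 were at 4.06 and 3.91. Probes of 1 gene differed as well. The ratio of the Xlr5c probe at base 349 exceeded that of the probe at base 480 by 1.00 ± 0.88, the Xlr3b probe at base 1230 exceeded that at base 1434 by 0.52 ± 0.48, and the Xlr4a probe at base 999 exceeded that at base 215 by 1.20 ± 1.56 (SD, n = 3 each). Since probes differ in how they bind, the differences between subfamilies are differences between probe ratios and do not give amounts of RNA.

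The next comparison is with the genes around the cluster. The 10 probes span 212.3 kb of the X chromosome, from 70319816 to 70532113 of mm9, and 139 further probes lie within 2 Mb of either end. Of these 81 passed the filter, with a median log2 ratio of -0.20. In the limma fit 1 was called higher and 0 lower, against 0.616% of all probes called in either direction, and 21 of the 81 had an unadjusted p under 0.05, as did 21.8% of all probes. The one called was Pnma5, 40.4 kb outside the cluster, a gene of the paraneoplastic Ma antigen family. It had levels of 11.49, 12.48 and 11.99 in mutant samples, against 8.87, 8.92 and 8.32 in wild type samples, and a log2 ratio of 3.29 ± 0.31 (limma SE, adjusted p = 0.04321). Its call was lost without replicate 1 (adjusted p = 0.105) and without replicate 3 (adjusted p = 0.0695). Adjusted p ran from 0.0014 to 0.303 over the alternatives.

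**Figure D3:**
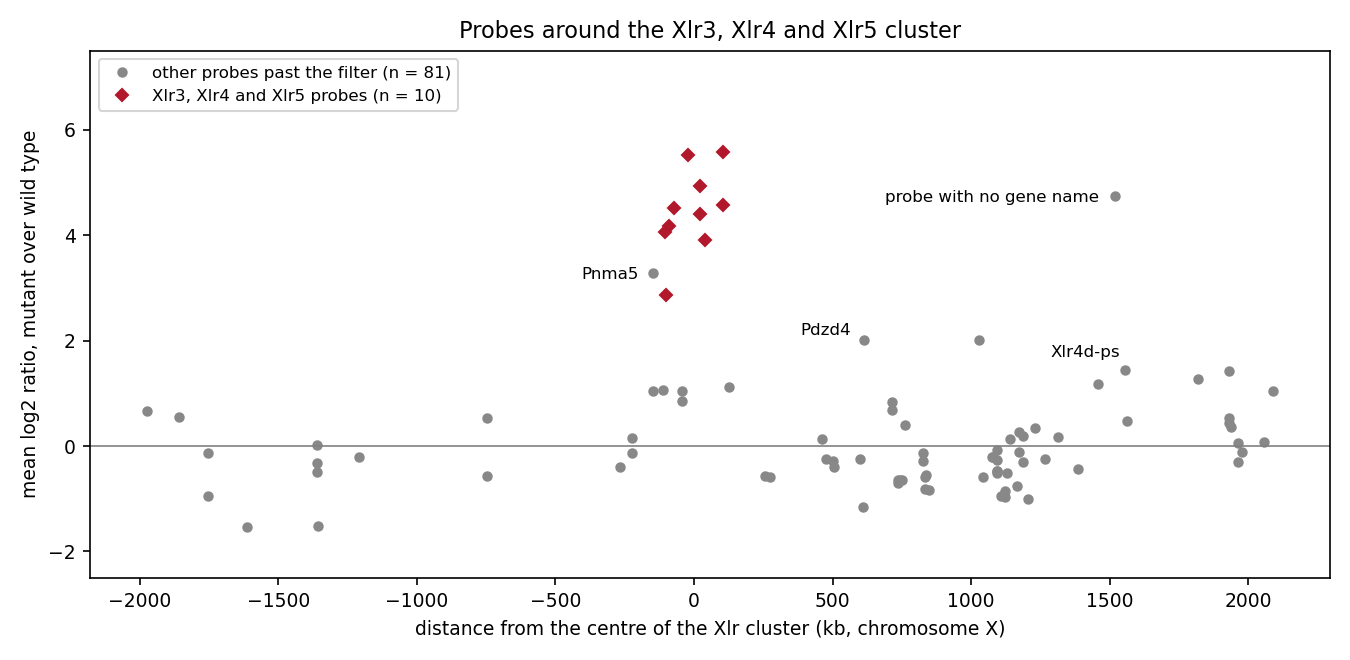
Mean log2 ratio of mutant over wild type against distance from the centre of the cluster in kb, for the 10 family probes (red diamonds) and the 81 other probes past the filter within 2 Mb of the cluster (grey). The family lies between 2.86 and 5.58, and the other probes lie between -1.53 and 4.74 with Pnma5 beside the cluster at 3.29.

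The other genes inside or next to the cluster had smaller ratios than the family. DXBay18, which lies between Xlr5a and Xlr5b in the same stretch of the chromosome, had 2 probes past the filter at 1.05 and 0.86 (limma, adjusted p = 0.13 and 0.1695). Their sequences overlap, and their accessions are shared with near copies. Pnma3, 6.8 kb from the cluster, was at 1.07 (adjusted p = 0.2023, above background in 2 of 3 wild type samples), and Gm5639, 20.9 kb on the other side, at 1.12 (adjusted p = 0.09082). These values lay below the smallest value of the family, 2.86, and none of these probes passed the threshold. Zfp185, at 1.05, was 1.80 and 1.61 on replicates 1 and 3 but -0.25 on replicate 2. Farther out the values fell on both sides of 0. Pdzd4 was at 2.02 (adjusted p = 0.0573), Tktl1 at 2.01 (adjusted p = 0.114, above background in 1 of 3 wild type samples) and the 2 Haus7 probes at -0.56 and -0.59, examples picked after their values were seen. Without replicate 2, 48 of the 81 probes were called, 21 higher and 27 lower, while over all probes 24.6% were called higher and 21.5% lower.

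More copies related to the family lie farther along the X chromosome. Xlr4d-ps, the pseudogene whose probe shares bases with the Xlr3b and Xlr4a probes, had levels of 8.33, 7.29 and 8.10 in mutant samples, against 6.22, 6.60 and 6.54 in wild type samples, with 1 of the 3 wild type samples above background. Its log2 ratio of 1.45 ± 0.35 (limma SE) did not pass (adjusted p = 0.1084). A probe with no gene name at chrX:71945677-71945736 of mm9 had 12.55, 11.74 and 13.46 in mutant samples, against 7.31, 8.92 and 7.29 in wild type samples. Its ratio of 4.74 ± 0.66 (limma SE, adjusted p = 0.05681) was of the size seen in the family, and it was picked out after its value was seen. It passed without replicate 2, at 5.70 (adjusted p = 0.000535). The nearest named probes on either side of it are those of Gm5640 and Xlr4d-ps. In the RefSeq table the pseudogenes Xlr5d-ps and Xlr3d-ps lie between these genes, and the files do not say whether the probe reads either of them.

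Relatives outside the cluster were measured less well. Of 10 probes for the family of SYCP3-like genes (Xlr, Slx, Slxl1, Sly and Sycp3), 5 passed the filter, with a median log2 ratio of 0.64. In the limma fit 0 of the 5 were called, against 0.616% of all probes. Of the 5, 2 had an unadjusted p under 0.05, as did 21.8% of all probes. Sycp3, the meiotic axis gene for which the family is named, had 2 probes. The first was at 2.06, 0.13 and 2.51 on the 3 arrays (mean 1.56, adjusted p = 0.174) and the second at 3.25, -1.27 and 4.23 (mean 2.07, adjusted p = 0.3361), so both rested on replicates 1 and 3. Of Sly, on the Y chromosome, 2 probes passed the filter, at -0.70 (adjusted p = 0.2234, above background in 2 of 3 mutant samples) and at 0.36 (adjusted p = 0.453, above background in 2 of 3 wild type samples). Xlr itself was above background in 1 mutant and 1 wild type sample and was not tested. Without replicate 2, 4 of the 5 probes were called, 3 higher and 1 lower, against 46.1% of all probes. A further relative was looked up after values were seen: 1700013H16Rik, for which RefSeq gives the synonyms Slx2 and Xlr6, was at 4.57, 1.96 and 3.34, a mean of 3.29 ± 0.53 (limma SE, adjusted p = 0.06275).

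The family was then set beside other germline genes of the X chromosome, genes known mainly from testis and oocytes. Of 47 probes on the list 15 passed the filter, 1 was called higher and 0 lower (of all probes, 0.392% and 0.225%), and the median log2 ratio was 1.04. The one called was Rbmxl2, a testis RNA-binding protein, at 2.80 ± 0.32 (limma SE, adjusted p = 0.04997), which the array places on chromosome 7. On the X chromosome itself 0 of 14 were called in the limma fit, with 10 at an unadjusted p under 0.05, as were 21.8% of all probes. Their values ran from 0.29 to 2.26, and 11 of 14 were above 0 on all 3 arrays, as were 20.6% of all probes. The Tktl1, Tex11, Dmrtc1b, Magea8 and Mageb4 probes passed the filter by their mutant samples alone, and Magea5 by its wild type samples alone. Of the 15 listed probes 8 were well above background in both channels, against 16028 of all 19142. A dim probe passes more easily where 1 genotype is higher, so 20.6% is no matched background for the 11 of 14. Fthl17, a ferritin-like gene of germ cells, was at 2.26 and Tex11, a meiotic gene, at 1.68 and 0.85 (adjusted p = 0.0573, 0.0573 and 0.229). All 14 were below the smallest value of the family, 2.86. The Rbmxl2 call was lost without replicate 1 (adjusted p = 0.178) and without replicate 3 (adjusted p = 0.104). Without replicate 2, 12 of the 15 were called, all higher, as were 24.6% of all probes. Over the 798 probes of the X chromosome past the filter and outside the family the median log2 ratio was 0.06, against 0.02 over 18124 autosomal probes. In the limma fit 7 of the X probes (0.877%) and 59 of the autosomal probes (0.326%) were called higher, and 2 and 39 lower.

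Genes that silence germline genes, or that place or remove DNA methylation, were read by 38 probes past the filter. They are called silencing factors below, although Tet1 and Tet2 among them act in removing methylation. Tet1 was at 0.74, 1.46 and 0.71 and Tet2 at 0.20 and 1.09. In the limma fit 0 were called, against 0.616% of all probes, with 11 at an unadjusted p under 0.05 (21.8% of all probes were). The median log2 ratio was 0.57. The smallest p-values belonged to Dnmt3b, a methyltransferase that sets new DNA methylation, whose 3 probes were at 1.81, 2.07 and 1.86 (adjusted p = 0.0573, 0.0573 and 0.06488). Dnmt3l, its cofactor, was at 2.21 (adjusted p = 0.0699), and Dnmt3a, the related enzyme, at -0.13. Dnmt1 and Uhrf1, which keep methylation through cell division, were at -0.30 and 0.55. The repressor E2f6 was at -0.56 and Yaf2, a subunit of the repressive complex that E2F6 joins, at -1.28 and -1.18. Other listed subunits of that complex fell on both sides of 0. Rybp was at 1.00, Pcgf6 at 0.63, Mga at 0.62, L3mbtl2 at 0.47 and Max at 0.25. Rnf2 was at -0.49 and Ring1 at -0.45. None of these passed. Without replicate 2, 20 of the 38 probes were called, 16 higher and 4 lower, against 46.1% of all probes.

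Markers of several cell types also differed between the genotypes in these bulk samples. For comparison, the limma fit called 0.392% of all probes higher and 0.225% lower, and 21.8% had an unadjusted p under 0.05. For undifferentiated stem cells 12 of 13 probes passed the filter, their median log2 ratio was 2.08 (1.81, 1.95 and 2.37 on the 3 arrays) and 4 were called higher and 0 lower. Zfp42 was at 3.17 and Dppa5a at 2.67, while Nanog was at 0.08. The 8 probes of extraembryonic endoderm markers past the filter had a median of -2.52, with 2 called lower, and the 4 of neural markers -2.47, with 0 called in the limma fit and 2 at an unadjusted p under 0.05. Germ cell markers had a median of 1.12, with 2.37, 0.80 and 1.05 on the 3 arrays, and 0 of 7 probes called in the limma fit (4 at an unadjusted p under 0.05). Among these the mean was highest for Dppa3, at 3.43 (4.26, 0.80 and 5.21 on the 3 arrays), and lowest for Nanos3, at -0.03. Trophoblast markers were at 0.79 (0 of 9 called in the limma fit, 4 at an unadjusted p under 0.05) and those of mesoderm and heart at -0.12 (1 of 6 called lower). For T and B lymphocytes, in which the first Xlr gene was described, 3 of 12 probes passed, with a median of 0.60. They were a probe each of Cd3e at 1.18, Cd79a at 0.60 and Cd4 at 0.26. Those of Cd3e and Cd79a passed by their mutant samples alone. In the limma fit 0 were called, with 1 at an unadjusted p under 0.05. No probe of Ptprc or Rag1 was above background in any sample. What part these cell type differences have in the family's ratios was not tested.

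The 5 named probes outside the family whose 3 ratios lay nearest to the family median on each array were C330022B21Rik, Nr0b1, Oasl2, Cyct and Gm7167. The measure was the root mean square difference over 3 arrays, on the log2 scale. It was 0.20 for C330022B21Rik, which the array places on chromosome 13, with ratios of 4.65, 3.83 and 4.77. It was 0.55 for Nr0b1, an X-linked nuclear receptor of stem cells, with 4.49, 3.17 and 4.08. For Oasl2, an interferon-induced gene, it was 0.79, for Cyct, the testis form of cytochrome c, 0.80, and for Gm7167 0.87. Cyct had nearly the same ratio on replicate 2 (4.94) as on replicates 1 and 3 (4.65 and 5.01), as did the Xlr5c probe at base 349. Likeness over 3 arrays says nothing about shared control.

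The size of the difference depended on how background was handled, and its direction did not. All 125 values of the 10 probes over 13 alternative settings were above 0, from 1.96 to 6.54. The family median was 3.30 when the spots with extreme background on replicate 3 were kept, and 3.35 in the authors' deposited log2 ratios. Under both, 0 of 10 probes, and 0 of all probes, were called. All 10 had an unadjusted p under 0.05 in the limma fit, as did 1956 and 3638 of all 19142 probes.

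**Figure D4:**
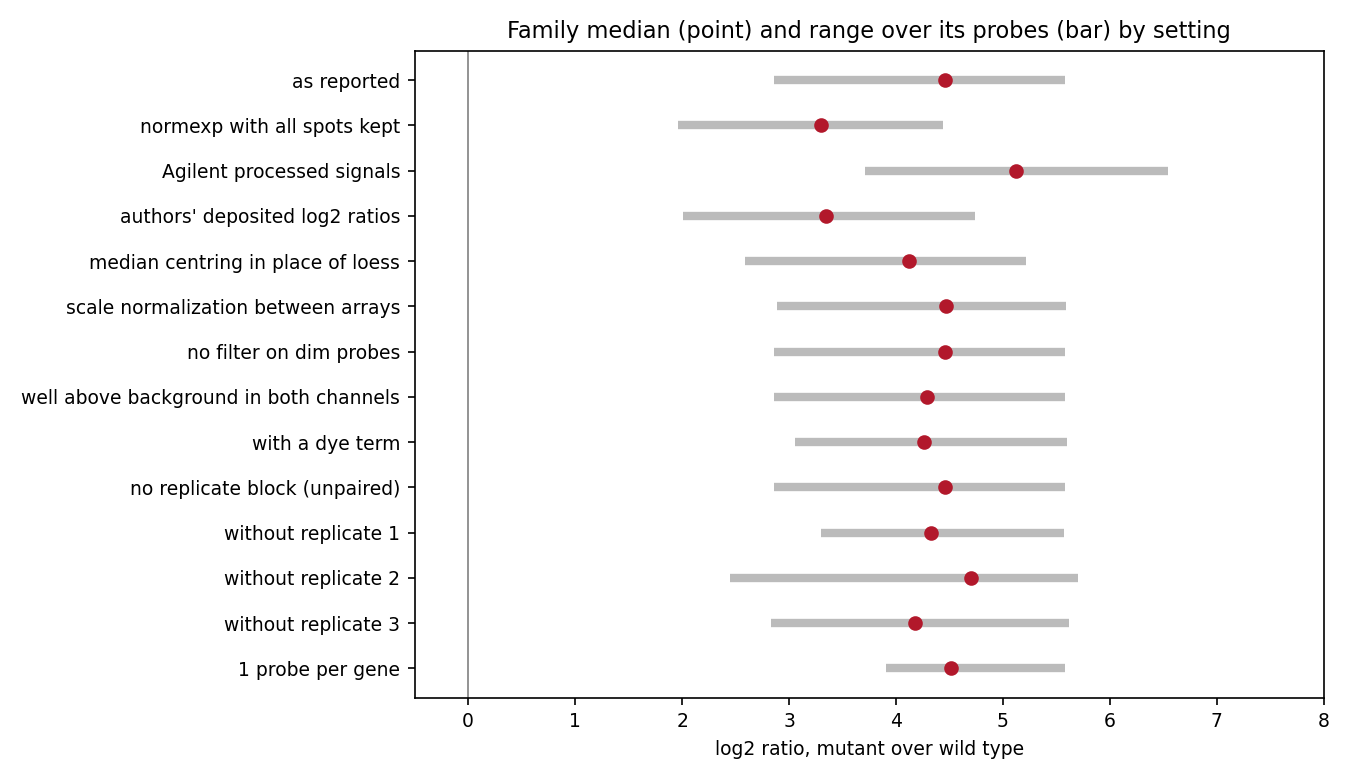
Median log2 ratio of mutant over wild type over the family's probes (points) and the range over the probes (bars) as reported and under the 13 alternatives. The median runs from 3.30 to 5.12 and no bar reaches 0.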

How the data were processed

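RNA of mutant and wild type embryoid bodies was amplified, labelled and hybridised in pairs to 3 Agilent two-colour arrays, per the labels' protocols. Scanning software was Agilent Feature Extraction 10.7.3.1, per the file headers, which also give mm9 as the build of probe positions. The deposited columns give each spot's mean intensity and median local background intensity without normalisation, intensity values that the software background-subtracted and dye-normalised, and other columns of flags, per the file headers. The authors' deposited table holds log2 ratios of mutant over wild type (column medians of -0.04, 0.01 and -0.01, centring unknown), and the submitters' processing notes name limma. The table's column for replicate 1 correlated better with the scanner file of replicate 3 (0.775) than with its own (0.62), and that for replicate 3 better with replicate 1 (0.815) than with its own (0.715). The mutant carries Cy3 on both, and the mean over arrays is not affected.

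Intensities were corrected with normexp (offset 50) and loess within arrays in limma 3.58.1 under R 4.3.3, giving the 1377 control spots no weight. On replicate 3, 7 spots with a background outlier flag and background above 10 times the array's median took that median and were left out, as were 317, 364 and 438 outlier spots per array. Spots of a probe were averaged and probes kept apart. Log2 ratios were tested with lmFit and eBayes against 0, two-sided, with Benjamini-Hochberg adjustment over 19142 probes (2 residual and 3.13 prior degrees of freedom). Each array is a mutant and wild type pair, so the fit is paired by hybridisation. The dyes were not swapped equally, so means keep part of any dye effect. Levels are channel values after loess and Aquantile scaling, and folds with a genotype below background are lower bounds from these levels. The fit was tested on simulated data. Members, lists and alternatives were chosen with earlier results of these data known. Probes named outside the family are those called in each list or, with none, the 3 of smallest p, the 5 nearest in pattern, and others said to be picked after their values were seen or lying nearest to the cluster. Promoters and their motifs were read from RefSeq (GRCm38.p6) with Biopython 1.88. The arrays' number limits the precision.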

Additional observations from a re-analysis of the deposited data

How the results depend on the processing

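The family median of 4.46 kept its direction under all 13 alternatives and moved by more than the spread between arrays under 2 of them, to 3.30 with all spots in the background model and 3.35 in the authors' deposited log2 ratios. It was 4.18 to 4.70 with 1 replicate left out. The 10 probes gave 125 values, of which 101 stayed within their spread between arrays and 24 moved. The calls were less stable. With all spots in the background model, counts were 0 for the whole array, the family, the neighbours and the X-linked germline list (1956 probes at an unadjusted p under 0.05 over the array), and the same held with the authors' deposited log2 ratios (3638) and with no filter on dim probes (6329). With probes well above background in both channels counts were 4 over the array, 2 of 8 in the family, 0 among neighbours and 0 in the germline list. Agilent processed signals gave 380 over the array, 3 neighbours and 2 germline probes. A dye term gave 5646 over the array, 27 neighbours, 2 relatives, 11 germline probes and 21 silencing factors. Without the replicate block, that is unpaired, counts were 285 over the array, 9 in the family, 2 neighbours, 3 germline probes and 1 silencing factor. With 1 probe per gene they were 46 over the array and 0 in the germline list, which also had 0 with median centring. Median centring gave 40 higher and 40 lower calls over the array, against 75 and 43 as reported. Leaving out 1 replicate gave 5 to 8829 calls over the array, 2 to 10 in the family, 0 to 48 among neighbours, 0 to 4 relatives, 0 to 12 germline probes and 0 to 20 silencing factors, with the highest counts in each case without replicate 2. The cause of these changes was not tested. Signals near background limit the wild type levels of Xlr5a and Xlr5c. Low wild type levels were also seen at Xlr3a (6.83, 7.54 and 6.93), Xlr4a at base 215 (7.02, 7.65 and 6.97) and Xlr5b (6.71 on replicate 3). Agilent processed signals gave larger ratios at these probes: 5.03 against 4.17, 3.71 against 2.86 and 6.54 against 5.53.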
